A study of Drosophila melanogaster with 2 samples.

Results

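The eye pigment genes of Drosophila melanogaster were taken as 8 genes of pigment transport and synthesis, namely w, st, bw, cn, v, pr, Pu and Hn. A gene entered when the annotation of the array platform gave its symbol as the only gene of a probe set. This held for 5 of the 8 genes, st, bw, cn, pr and Pu, with 6 probe sets between them, out of 10843 genes and 12442 probe sets with 1 symbol. The genes w, v and Hn were not analysed here, so the white mutation of the control could not be set against its own transcript. Total RNA was measured on 1 Affymetrix array of homozygous mbf1 mutants and 1 array of yw, the control, named for its mutations yellow, of body colour, and white, of eye colour. Per the labels both were embryos, kept at 25 °C for 16 h once the eggs were laid. The labels name neither the alleles nor whether the mbf1 mutants also carry y or w. The series asked which genes depend on MBF1, a coactivator that bridges transcription factors and the TATA-binding protein. With 1 array per genotype there is no replicate error and no test, and each difference below is one between these 2 arrays.

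The fly eye takes its colour from brown ommochromes and red pteridines, which are held in pigment granules related to lysosomes. Ommochromes are made from tryptophan, first by the dioxygenase encoded by v and later by kynurenine 3-monooxygenase, encoded by cn. Pteridines are made from GTP, first by GTP cyclohydrolase I, encoded by Pu, and then by 6-pyruvoyl-tetrahydropterin synthase, encoded by pr. The same route gives tetrahydrobiopterin, the cofactor of phenylalanine hydroxylase, which Hn encodes. The proteins of w, st and bw are ABC transporter subunits that work in pairs, White with Scarlet for ommochrome precursors and White with Brown for pteridine precursors. Several of these genes are also known to act in the Malpighian tubules, the excretory organs of the fly.

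Signals are MAS5 intensities after the mbf1 array was divided by 1.465, the factor that brought the bulk of bright probe sets on both arrays together. Before this the median probe set had an intensity of 36.9 on the mbf1 array and 25.4 on the yw array. A floor was set at a signal of 17.7, the 40th percentile of all scaled values, and a gene above it on at least 1 array is called measured, which 7688 genes were. The mbf1 transcript, the check of the mutant label, had a signal of 22.1 on the mbf1 array and 478.7 on the yw array. The yellow gene y had 18.7, just over the floor, on the mbf1 array and 8.91, under it, on the yw array. Genes of male organs were bright on both arrays, which goes against the stage in the labels. Of the marker genes with a probe set, 10 of 10 accessory gland genes and 11 of 13 testis genes were above the floor on each array, with median signals of 465 and 679 on the mbf1 array, against 396 and 675 on the yw array. Of 11 embryonic patterning genes, 5 were above the floor on the mbf1 array and 3 on the yw array, and no stage was read from these. Over all 10843 genes, 7189 were above the floor on the mbf1 array and 7156 on the yw array.

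None of the measured eye pigment genes differed by 2-fold between the arrays as scaled here. Both pteridine enzymes came close to it and in opposite directions, with pr 1.89-fold higher and Pu 1.87-fold lower on the mbf1 array. The transporter gene st differed by 1.21-fold, and bw and cn were under the floor on both arrays. Of the 5 genes with a probe set, 3 were therefore measured, and 0 of these 3 were at least 2-fold higher and 0 at least 2-fold lower. Over all measured genes, 1.51% were at least 2-fold higher and 1.63% at least 2-fold lower. At 1.5-fold the numbers were 1 higher and 1 lower, against 7.45% and 7.71% of all measured genes. Counts this small say nothing about the group as a whole.

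**Figure D1:**
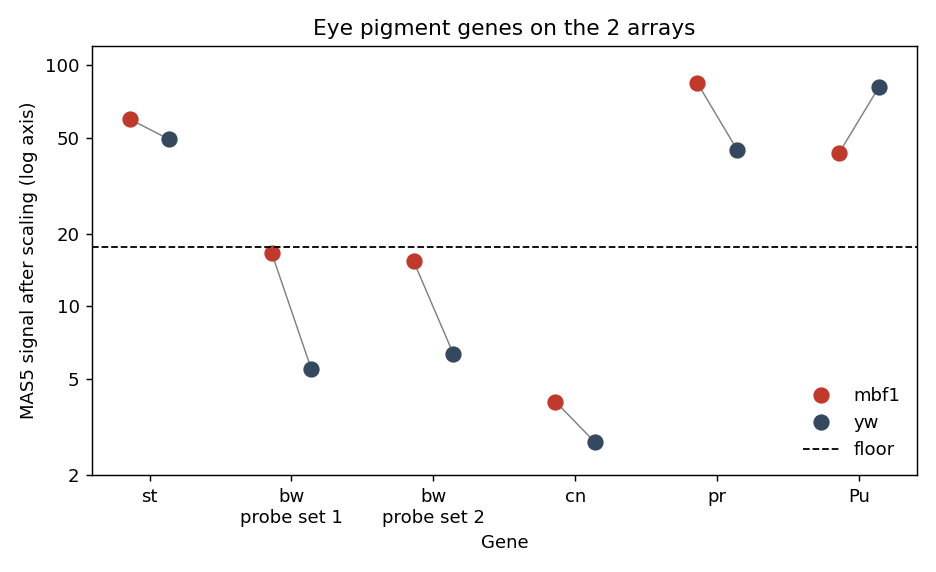
Scaled MAS5 signal (log axis) of each probe set of the 5 eye pigment genes, with 1 point for the mbf1 array on the left and 1 for the yw array on the right of each pair, and the floor of 17.7 as a dashed line. The points for pr and Pu lie in opposite order, and both bw probe sets and cn lie under the floor on both arrays.

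Among the transporters, st was read by probe set 153393_at. Its deposited intensity was 87.5 on the mbf1 array and 49.2 on the yw array, and its scaled signal 59.7 on the mbf1 array and 49.2 on the yw array. The log2 ratio, mbf1 over yw, was 0.28, and 22.5% of all measured genes had a ratio at least as high. The SD of log2 ratios among the 500 genes of nearest brightness was 0.38, in a robust estimate from the median deviation, so the ratio of st lay within the spread of genes as bright as it. The gene st lies close to mbf1 on chromosome arm 3L, with 4 genes between them in the Release 6 gene order. The measured genes between them were CG4229, with a ratio of -0.06, and Mipp1, an inositol polyphosphate phosphatase gene, with -0.43, and neither was 2-fold apart.

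The brown gene bw had 2 probe sets, and both were brighter on the mbf1 array. Probe set 142279_at had scaled signals of 16.7 on the mbf1 array and 5.51 on the yw array, and 151510_s_at had 15.4 on the mbf1 array and 6.38 on the yw array. All 4 values are under the floor of 17.7, so no fold is given. At this brightness ratios taken without a floor scattered widely. Among the 500 probe sets nearest in signal their robust SD was 0.89 on the log2 scale for 142279_at and 0.88 for 151510_s_at, compared with 0.38 for st and pr and 0.39 for Pu. With a floor at the 25th percentile bw would count as measured, with mbf1 over yw at least 1.88-fold by 142279_at and at least 1.73-fold by 151510_s_at. With the values as deposited the bounds were at least 1.15-fold and at least 1.06-fold, because the floor then stood at 21.4. With scaling on hybridization controls 142279_at was at least 1.01-fold higher and 151510_s_at was under the floor. The 151510_s_at probe set carries the suffix that Affymetrix gave to sets whose probes match more than 1 transcript.

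The single ommochrome enzyme gene with a probe set, cn, was not measurable on either array. Probe set 143103_at had scaled signals of 4.04 on the mbf1 array and 2.73 on the yw array, far under the floor, and cn stayed under it in every setting that was tried. A difference in cn was not detectable at this signal.

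The pteridine enzymes were the measured eye pigment genes that stood furthest from a ratio of 1. The gene pr, known as purple, was read by 153549_at, with deposited intensities of 123.4 on the mbf1 array and 44.6 on the yw array. Its scaled signals were 84.2 on the mbf1 array and 44.6 on the yw array. The log2 ratio was 0.92, and 2.03% of all measured genes had a ratio at least as high. Pu, known as Punch, was read by 154812_at, with deposited intensities of 63.5 on the mbf1 array and 81.2 on the yw array. Its scaled signals were 43.4 on the mbf1 array and 81.2 on the yw array, and 2.17% of all measured genes had a ratio at or below its log2 ratio of -0.90. Both ratios are more than 2 times the robust SD among genes of the same brightness, which was 0.38 for pr and 0.39 for Pu, but that SD is taken across genes on the same 2 arrays and leaves out the error between samples.

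Pu and pr encode consecutive steps of one route, and the difference between their log2 ratios does not depend on the factor that brings the arrays to a common level. The ratio of pr minus that of Pu was 1.82 on the log2 scale, or 3.53-fold. Each of pr and Pu was read by 1 probe set, so neither ratio has a second reading.

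**Figure D2:**
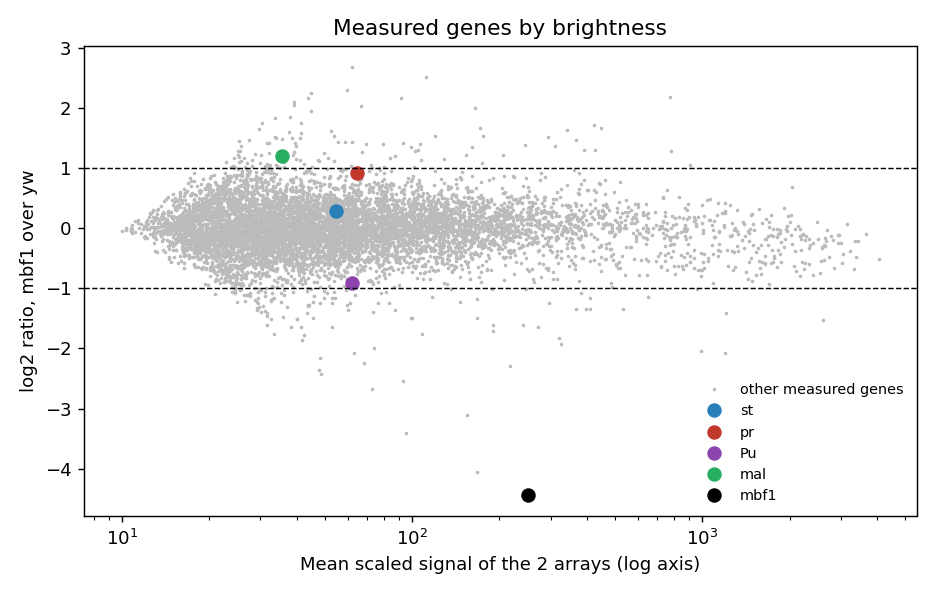
Log2 ratio (mbf1 over yw) against mean scaled signal (log axis) for the 7688 measured genes, with values under the floor raised to it and dashed lines at 2-fold. The points of pr at 0.92 and Pu at -0.90 lie just inside these lines, st lies within the bulk, and mal and mbf1 lie outside.

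The other enzymes of the pteridine route stayed near a ratio of 1, with one exception. Of 10 further genes of the route, 9 had a probe set and all 9 were measured. Of these 9, 1 was at least 2-fold higher and 0 at least 2-fold lower, against 1.51% and 1.63% of all measured genes. In lists of this size, here and below, such counts say nothing about a list as a whole. The median log2 ratio of the 9 was 0.02, where that of all measured genes was -0.00085. The exception was mal, which encodes the enzyme that sulfurates the molybdenum cofactor of xanthine dehydrogenase. Its signal was 49.7 on the mbf1 array and 21.6 on the yw array, 2.30-fold higher, with the yw value only slightly over the floor. The gene ry, which encodes xanthine dehydrogenase itself, had 49.7 on the mbf1 array and 38.1 on the yw array, a log2 ratio of 0.38. The next enzymes after pr in cofactor synthesis and recycling had smaller ratios, with 0.31 for the sepiapterin reductase gene Sptr, -0.28 for the carbinolamine dehydratase gene Pcd and -0.03 for the dihydropteridine reductase gene Dhpr. In the branch to the red drosopterins, the pyrimidodiazepine synthase gene se had a log2 ratio of -0.13 and clot, cl, which works with it, 0.14. The dihydropterin deaminase gene DhpD had a log2 ratio of 0.02, and prune, pn, one of -0.11. Of the genes for other enzymes that use tetrahydrobiopterin, the tyrosine hydroxylase gene ple had a log2 ratio of -0.05, and the nitric oxide synthase gene Nos was under the floor on both arrays.

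Ommochrome genes beyond cn were measured in 3 of 4 cases. Of the 3, 0 differed by 2-fold, against 1.51% higher and 1.63% lower over all measured genes. The monocarboxylate transporter relative kar, karmoisin, had signals of 42.9 on the mbf1 array and 58.7 on the yw array, a log2 ratio of -0.45. Its second probe set did not reach the floor. The kynurenine formamidase gene KFase, which acts between v and cn, had 39.8 on the mbf1 array and 30.9 on the yw array, a log2 ratio of 0.37. Kyat, a kynurenine aminotransferase gene that draws off the same intermediate, had a log2 ratio of 0.20, and the peroxidase gene cd was under the floor on both arrays.

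The granule group holds genes for the vesicle traffic that builds pigment granules, and mutations in many of them change eye colour. Of 21 genes listed, 14 had a probe set and 11 were measured, with 5 ratios above 0, 6 below and a median log2 ratio of -0.15. Of all measured genes 49.9% had a ratio above 0. Of the 10 above the floor on both arrays 0 differed by 2-fold. Over all measured genes, those above the floor on 1 array only included, 1.51% were higher and 1.63% lower. The remaining gene, or, encodes the sigma subunit of the AP-3 adaptor and had a signal of 34.4 on the mbf1 array and 17.4, under the floor, on the yw array, so it was at least 1.94-fold higher and may lie past 2-fold. The gene lt, which encodes the Vps41 tethering subunit, had 56.8 on the mbf1 array and 29.8 on the yw array, a log2 ratio of 0.93. Among the other AP-3 genes, the mu subunit gene cm had a log2 ratio of 0.15 and the beta subunit gene rb -0.17, with rb close to the floor, while the delta subunit gene g was under the floor on both arrays. The small GTPase gene Rab32, known as lightoid, had signals of 133.3 on the mbf1 array and 148.2 on the yw array, a log2 ratio of -0.15.

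White, Scarlet and Brown belong to subfamily G of the ABC transporters, and st was set beside the rest of that subfamily. All 12 other genes had a probe set and 11 were measured, with a median log2 ratio of 0.14. Of the 10 above the floor on both arrays 0 differed by 2-fold. Over all measured genes, those above the floor on 1 array only included, 1.51% were higher and 1.63% lower. The remaining one, CG11069, had 20.5 on the mbf1 array and did not reach the floor, at 8.20, on the yw array, which makes it at least 1.16-fold higher. The largest ratios were those of CG31121, with signals of 41.2 on the mbf1 array and 21.3 on the yw array and a log2 ratio of 0.95, and of CG9664, with 30.3 on the mbf1 array and 47.3 on the yw array and a log2 ratio of -0.64. The second probe set of CG31121 did not reach the floor. The list gives each gene by its brightest probe set, and for CG17646 the 2 probe sets disagreed in sign. The brighter one had a log2 ratio of 0.26. The other had -0.69, further from 0 than CG9664, with 36.9 on the mbf1 array and 59.6 on the yw array. The ratio of 0.28 for st lay within the range of this subfamily.

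**Figure D3:**
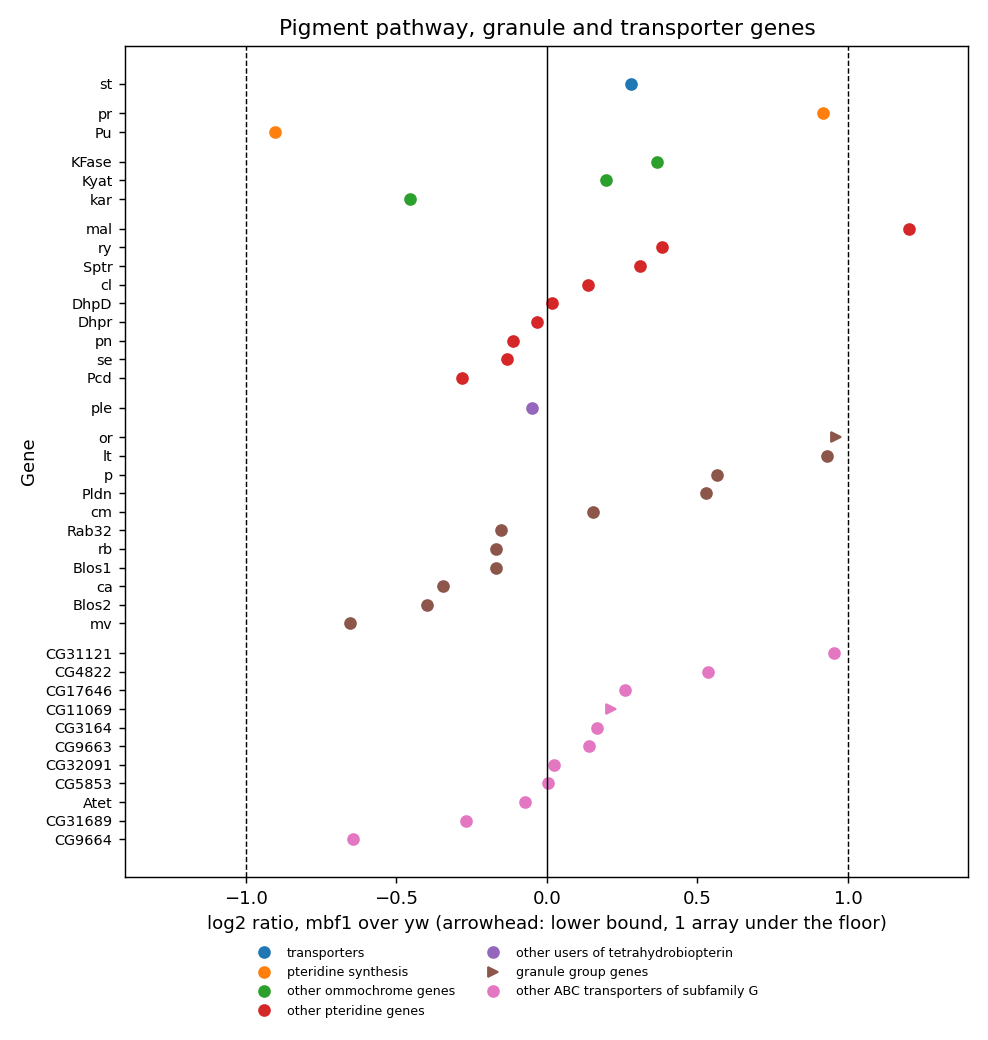
Log2 ratio (mbf1 over yw) for each measured gene, grouped by list, with dashed lines at 2-fold and arrowheads where 1 array was under the floor and the ratio is a lower bound. In the scaling used here mal lies past 2-fold. Nearest to the lines lie pr, lt, CG31121 and the gene or on the right and Pu on the left. The arrowheads of or and CG11069 mark ratios that may be larger than drawn.

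Markers of the organs in which these genes act were compared on the same arrays. The 6 photoreceptor genes with a probe set were all above the floor on both arrays, and their signals summed to 2685 on the mbf1 array and 2665 on the yw array. The single genes ranged from 22.9 to 1186 on the mbf1 array and from 24.0 to 1297 on the yw array. Arr1 and Arr2 held most of each sum. The log2 ratios of single genes went both ways, from -0.46 for inaD to 0.66 for trpl. The 5 Malpighian tubule genes with a probe set were also all above the floor, and their signals summed to 687 on the mbf1 array and 482 on the yw array, ranging from 38.7 to 316 on the mbf1 array and from 34.3 to 177 on the yw array. Their median log2 ratio was 0.31, and the largest was that of salt, 0.83. This gene was also the brightest of the 5 on each array, so it weighed most in both sums. Of the 5, 0 were at least 2-fold apart, against 1.51% higher and 1.63% lower over all measured genes. The part of the tubule genes in the ratios of pr, Pu and mal was not tested. In RNA of whole animals, more or fewer cells of a type cannot be told apart from more or less RNA per cell.

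The scaling between the arrays bears on which of these genes pass 2-fold. The ratio of pr was 1.47 with no scaling and 1.13 with scaling on the spiked hybridization controls, both past 2-fold, and that of Pu was -0.35 and -0.69. These settings put the median of all measured genes at 0.50 and 0.19. The signs of pr, Pu and st were the same in every setting tried. With no scaling 34 of the 36 measured genes of the wider lists had ratios above 0. This was 94.4%, against 90.1% of all measured genes in that setting. In the reported scaling 20 of 35 did, or 57.1% against 49.9% of all measured genes. The directions of the small ratios above are therefore relative to the bulk of genes. Of these lists mal, or, lt, the BLOC-1 complex gene Pldn, CG31121 and CG4822 were past 2-fold with no scaling, where 10.1% of all measured genes were at least 2-fold higher. With scaling on hybridization controls mal, or, lt and CG31121 were past it, where 3.05% of all measured genes were.

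**Figure D4:**
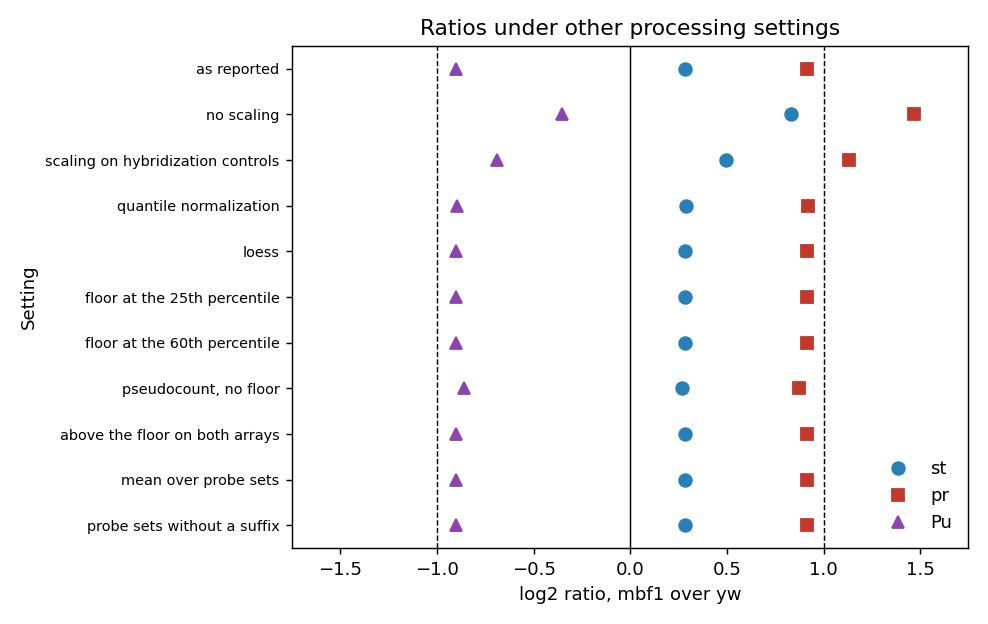
Log2 ratio (mbf1 over yw) for st, pr and Pu under the reported and 10 other processing settings, with dashed lines at 2-fold. The values with no scaling and with scaling on hybridization controls are shifted to the right for all 3 genes, by which pr passes 2-fold, and the remaining settings differ little from the reported one.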

How the data were processed

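Each array was deposited as 1 linear intensity for every probe set. The submitters' processing notes name MAS5, and neither its version nor its target level is given in the sources used here. The value table had 14010 probe sets, 44 of them controls, and 0 columns beyond the 2 arrays. Symbols came from GEO's platform annotation, which named 1 gene for 12442 probe sets and several for 327, with 1241 left unnamed, controls included. A lookup by gene identifier in a Release 6 gene table found 12393 of them and changed 0. That table also gave gene order. The genome build is not given in the sources used here, and neither coordinates nor sequences are printed.

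The mbf1 array was scaled by the median log2 ratio, 0.55, of probe sets above the median of both arrays, a floor was set, and log2 ratios followed. The brightest probe set by mean signal stood for each of 1209 genes with several. No test was possible with 1 array per genotype, and the number of arrays limits the precision. Values were computed with Python 3.11.15, numpy 2.4.6, pandas 2.3.3 and statsmodels 0.14.6, and the procedure was tested on simulated data. The members, lists, settings and thresholds were chosen with earlier results of these data known. Genes named were all members, all genes of a wider list at least 2-fold apart, the 2 largest ratios of each list, mbf1, y, and of the genes next to the members those at least 2-fold apart and all beside w and v. The remaining pteridine and ommochrome genes were added after their values were seen. So were Rab32, Pldn, CG4822, cm, rb, g, CG11069, CG17646, CG4229, Mipp1, Taf13, vls, dsx-c73A and CG33158. Of the markers, Arr1, Arr2, trpl, inaD and salt were also named after their values were seen. The genes nearest to w in pattern, also planned, could not be given. Alternatives are in the closing section.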

Additional observations from a re-analysis of the deposited data

How the results depend on the processing

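No ratio of st, pr or Pu changed sign in 10 alternatives, and 9 of 10 values of each gene stayed within the robust SD of genes of like brightness. Of these, 5 are identical by construction, since each gene has 1 probe set without a suffix and signals above every floor tried. The exception was no scaling, with 0.83 for st, 1.47 for pr and -0.35 for Pu, by construction of the shift. The difference between pr and Pu was 1.73 with a pseudocount and 1.82 in the other alternatives. The 0 eye pigment genes at least 2-fold higher became 1, pr, in the unscaled values, after scaling on hybridization controls and at a threshold of 1.5-fold, where the 0 lower genes became 1, Pu. Over all genes the 116 higher and 125 lower became 801 and 34 in the unscaled values, 235 and 78 after scaling on those controls, 281 and 262 under a 25th percentile floor, 53 and 58 under a 60th percentile floor, 226 and 205 with a pseudocount, 573 and 593 at 1.5-fold and 24 and 29 at 3-fold. The alternatives for w could not be run. No paired analysis was possible because each genotype has 1 array. Signal over background limits bw and cn, which were under the floor on both arrays, as were 29.1% of all genes.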

Other observations

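Genes next to the eye pigment genes were compared as well, taking the 5 genes on each side in the Release 6 gene order. Over all measured genes, those above the floor on 1 array only included, 1.51% were at least 2-fold higher and 1.63% at least 2-fold lower. Next to the 8 genes, 42 places were held by measured genes. Of the 40 above the floor on both arrays 1 was at least 2-fold apart, the mutated gene mbf1 itself, beside st. For the other 2, both beside pr, the ratio is a bound, with Taf13 at least 1.25-fold higher at 22.1 on the mbf1 array and 11.9 on the yw array, and vls at 14.3 on the mbf1 array and 17.7, at the floor, on the yw array. Beside w the single measured gene, CG32795, had a log2 ratio of -0.14. Beside v there were 5 measured genes, with 0.57 for CG15208, 0.54 for CG1582, 0.07 for CG2145, 0.07 for Rab9Fa and -0.58 for Myo10A. On chromosome arm 2L, fok, the second gene on one side of pr, had signals of 187.8 on the mbf1 array and 106.5 on the yw array. Its log2 ratio was 0.82, and it was chosen after its values were seen. Ratios of similar size stood beside st, with -0.85 for dsx-c73A and 0.81 for CG33158, chosen in the same way.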
